A study of Mus musculus with 10 samples.

Results

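The genes described here carry out DNA replication and mitosis, or hold cells back from them. The set was given as 38 gene names, from the proliferation antigen Mki67 to the cyclin-dependent kinase inhibitor Cdkn1a, and each gene was represented by the transcript with its highest mean RNAseq count. Counts were found for 33 of the 38 genes, out of 13184 genes with counts in the whole series. Ccnb1, Kif11, Pold1, Uhrf1 and Cdkn1b matched no counted transcript and are not analysed here. Names were matched to transcripts through a GRCm38 annotation, and 98.4% of all counted transcripts were found in it.

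The libraries came from primary cultures of cortex from newborn (P0) FVB mouse pups of both sexes, kept 7 days in culture, where neurons and glia grew together. Both groups had the same FVB background and no transgene was stated. The untreated group held 3 cultures (numbered 1, 2 and 3), and the KCl group held 2 cultures (4 and 5) depolarized with 55 mM KCl for 3 h. All cultures, untreated ones included, received cycloheximide for 7 min before lysis to stall ribosomes, and each lysate gave 1 RNAseq library and 1 ribosome footprinting (RF) library. The sources do not say whether cultures came from separate litters, so the p-values measure the spread between these cultures only.

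A cell enters the cycle when cyclin D kinases inactivate the Rb1 protein and release E2F factors, which activate genes for DNA synthesis. The MCM helicase then unwinds origins, polymerases copy the strands, and ribonucleotide reductase and thymidylate synthase supply nucleotides. CHR elements of promoters serve the cyclin B, Aurora kinase, kinetochore and kinesin genes of mitosis. There the DREAM complex represses these genes in resting cells and early in the cycle, and FOXM1 complexes switch them on later. Cdkn1a, the p53 target p21, blocks the cyclin-dependent kinases. In cortical cultures neurons are postmitotic, whereas astrocytes, progenitors and microglia can still divide.

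The bulk libraries did not show which cells carried these transcripts. Markers of several cell types were present, and 44 of 47 fixed marker genes had counts. Summed astrocyte markers (Gfap, Aqp4 and 6 others) read 10360 to 10990 normalized CPM in untreated and 8718 to 8945 in KCl RNAseq libraries, but 14750 to 15390 against 16110 to 16410 in RF. Summed microglia markers read 175.8 to 178.7 against 134.4 to 155.6 in RNAseq and 275.7 to 299.2 against 299.5 to 319.2 in RF. Oligodendrocyte lineage markers summed to 1229 to 1321 against 1168 to 1170 in RNAseq and 924 to 1021 against 1010 to 1081 in RF. Of 6 progenitor markers, Nes, Sox2 and Hes5 fell in both assays (RNAseq log2 fold changes -0.92, -0.69 and -2.55) and Pax6 rose in both (1.0 in RNAseq). In RF, 2 of the 6 were called higher and 3 lower. The RNAseq sum of the 6 overlapped (3525 to 3553 against 3512 to 3575), and their RF sum was higher with KCl (5933 to 6552 against 7320 to 7474). Summed neuron markers overlapped in RNAseq (360.1 to 521.1 against 453 to 459.6) and in RF (306.2 to 460.5 against 459.7 to 504.9). Normalized CPM are counts scaled to library size after TMM normalization within an assay. Fibroblast and mural markers summed to 551.4 to 661.4 against 512.3 to 576.9 in RNAseq and 1204 to 1673 against 760.6 to 903.3 in RF. Endothelial markers summed to 16.38 to 21.39 against 17.32 to 19.71 in RNAseq and 25.79 to 29.36 against 21.69 to 22.25 in RF. Their part in the results below was not tested. In bulk samples, fewer dividing cells and less RNA per cell cannot be told apart. RNAseq libraries held 3056286 to 3629959 counted reads and RF libraries 1463654 to 7719915. The 33 genes drew 3029 to 3552 RNAseq reads per library, and their CDS footprints ranged from 1889 in untreated culture 3 to 9203 in untreated culture 1. The stimulus was checked with the immediate early gene Fos, which rose 2.99-fold in RNAseq (log2 fold change 1.58 ± 0.18 (SE), adjusted p = 1.93e-09, edgeR quasi-likelihood test).

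Promoters are shown first, as a search for the letters of CHR and E2F elements. RefSeq promoters (GRCm38.p6, 250 bases before to 50 bases after a start site) were found for 32 of the 38 genes. The CHR letters TTTGAA or TTCGAA, searched on both strands, occurred in promoters of 14 of these 32 genes (43.8%), against 21.7% of all 27025 genes with a promoter in the table. Among mitotic kinase, spindle checkpoint and APC/C genes 5 of 6 held them, and among the nucleotide synthesis and fork genes 0 of 6 did. The E2F letters TTTCCCGC, TTTGGCGC, TTTCGCGC or TTTGCCGC occurred in 9 of the 32 genes (28.1%) and in 2.6% of all genes, and 4 of 5 MCM genes were among the 9. No CHR match overlapped an E2F match, but in Mcm5 and Mcm6 a pair of E2F matches on opposite strands overlapped. A match is a run of letters, and it does not show that a factor binds there. The windows below belong to members with a match whose levels are described closely, and capitals mark the matched letters. No match was found for Cdkn1a, Rb1 or Ccna2, which are also described closely. In the group of inhibitors and the gate of S phase, which includes Cdkn1a and Rb1, 3 genes had a promoter. Of these 3, 0 held the CHR letters and 0 the E2F letters.
Mki67 CHR, chr7:135716463-135716486, minus strand: ccgttttggTTTGAAtcgggcggg
Cenpf CHR, chr1:189688070-189688093, minus strand: ggcgggcagTTTGAAtcgctcgtg
Kif23 CHR, chr9:61946783-61946806, minus strand: attggcctgTTTGAAatgcgccgg
Cdk2 E2F, chr10:128705175-128705200, plus strand: ctgcacaacTTTCCCGCagttcctgg
Pola1 E2F, chrX:93632277-93632302, plus strand: gggagtgcaTTTGGCGCcctgtgatg
Mcm7 E2F, chr5:138171851-138171876, minus strand: gtgacgacgTTTCGCGCcaatttcgg

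Start codon contexts of the members were compared with those of other genes. A purine at position -3, which favors initiation, stood before the start codon of 31 of the 33 transcripts (93.9%), against 86.4% of 8936 genes with 1 transcript each. With a G at +4 as well, the count was 17 of 33 (51.5%), against 45.2%. The 5′UTR held no upstream AUG in 22 of 33 (66.7%), against 48.3%. The 2 exceptions at position -3 were Ccnb2 and Cdk2, shown here with Cdkn1a and Mki67, which have a purine there. Capitals mark the start codon.
Ccnb2: ggcggccctcATGgc
Cdk2: ctagcgctccATGga
Cdkn1a: cacaggcaccATGtc
Mki67: cgggcggaccATGgc

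In untreated cultures the members were expressed at low to moderate levels, with a median ratio of footprints to RNA above that of all transcripts. Of the 33 genes, 8 reached the study's expression threshold (a level of 10 or more RPKM, reads scaled to transcript or CDS length and library size, in both assays of a culture, met by 2 or more cultures): Top2a, Ccna2, Kif23, Mcm7, Rrm1, Rrm2, Cdkn1a and Rb1. That both assays must pass in the same culture is a reading made here, which the study does not state. Kif23 reached it in KCl cultures only and Rrm2 in untreated cultures only, so the passing of these 2 genes depended on the group in which they were higher. A further 23 genes had enough reads for a wider fit that used edgeR's filterByExpr, 22 of them in both assays and Plk1 in RNAseq only. Cdc20 and Pcna passed neither filter. Over the 30 members in both assays of the wider fit, the median untreated RNAseq level was 6.1 RPKM, against 9.27 RPKM over all 15437 transcripts of that fit. The median CDS footprint level was 15.1 RPKM, against 17 RPKM. All transcripts can include several of a gene, whereas each member is 1 transcript. Translation efficiency (TE), the ratio of CDS footprint RPKM to RNAseq RPKM within a culture, had a median of 2.43 over the members and of 1.93 over all transcripts. In the single untreated cultures the members' median TE was 2.31, 2.6 and 2.51, and 18, 21 and 20 of the 30 members lay above the median of all transcripts.

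Cdkn1a was the most abundant member, at 85.2 ± 11.1 RPKM in RNAseq (SD, n = 3) and a TE of 1.386 ± 0.351. Mcm7, a helicase subunit, followed at 21.06 ± 2.84 RPKM and Kif23, the kinesin of the spindle midzone, at 17.52 ± 1.22 RPKM. Their difference was smaller than the sum of the 2 SDs. Rb1 (15.21 ± 2.62 RPKM), Rrm1, the large subunit of ribonucleotide reductase (14.37 ± 1.45 RPKM), Top2a, the topoisomerase that untangles chromosomes (14.36 ± 1.91 RPKM), and Ccna2, cyclin A2 (13.91 ± 2.64 RPKM), did not differ beyond their spread. At the low end, the kinetochore motor Cenpe read 0.9425 ± 0.206 RPKM and Pola1, the catalytic subunit of DNA polymerase alpha, 1.489 ± 0.0531 RPKM. Cdc20, the activator of the APC/C, had 2 to 6 RNAseq reads per library, and Pcna, the sliding clamp of the polymerases, 2 to 7 reads. Pcna had 0 CDS footprints in all 5 RF libraries, which allows up to 3 reads per library. All Pcna RNAseq reads lay on its 3′UTR, and all Cdc20 RNAseq reads lay on its 5′UTR. The authors removed degenerate sequences from the transcriptome before alignment, and the part of that step in these low counts was not tested.

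TE varied widely among the members and depended on how RNA was counted. Mad2l1, a spindle checkpoint protein, had a TE of 10.38, 24.22 and 9.056 in the untreated cultures, and Cdk1, the kinase of mitotic entry, 11.58, 9.187 and 12.05. Their mean TE stood at the percentiles 99.3 and 98.4 of all transcripts. At the other end, E2f1, the activator of S phase genes, had 0.7205, 0.4542 and 0.1608, and Kif23 had 0.4294, 0.5256 and 0.556. When RNAseq reads were taken from the CDS alone, per CDS length, mean TE was 2.198 for Mad2l1, 3.11 for Cdk1, 4.462 for E2f1 and 2.843 for Kif23. The annotated 3′UTR of Mad2l1 is 6805 bases long, and 30 of its 131 untreated RNAseq reads lay there. Of 568 untreated Kif23 reads, 457 lay on a 3′UTR of 387 bases, and of 267 E2f1 reads, 253 lay on the 3′UTR. Over the 30 members the 2 ways of counting gave orders related with a Spearman rho of 0.35, a description over genes that share libraries. The members' median stood above that of all transcripts in both, 3 against 2.41 with CDS reads. Some CDS counts were small, with 3 untreated RNAseq reads for Mcm4 and 14 for Cdk2, so their TE with CDS reads rests on few reads.

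**Figure D1:**
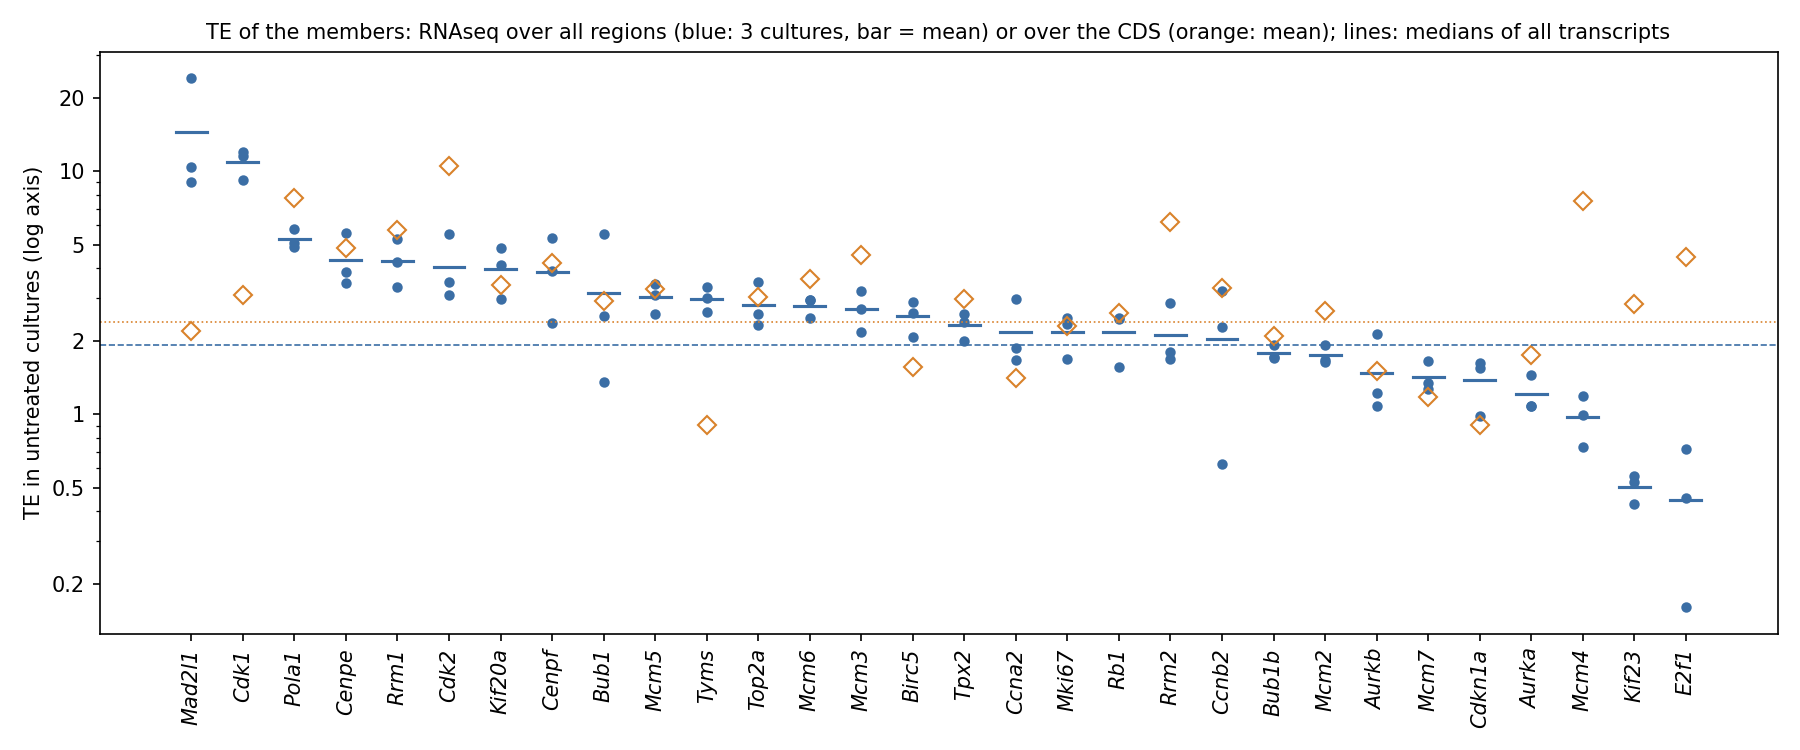
TE of the 30 members in the wider fit in untreated cultures, on a log axis. Blue points are the 3 cultures and blue bars their means, orange diamonds are mean TE with RNAseq reads from the CDS alone, and the lines give the medians of all transcripts (1.93 dashed, 2.41 dotted). Mad2l1 and Cdk1 lead in blue but lie near the medians in orange, and E2f1 and Kif23 move above them.

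Footprints of the members fell mostly on coding sequence. The CDS took 94.5 to 96.2% of their footprints, the 5′UTR 3.41 to 5.2% and the 3′UTR 0.12 to 0.323% across the 5 RF libraries. Birc5, with a CDS of 363 bases and a 3′UTR of 2939 bases, had 38 of its 151 untreated footprints on the 3′UTR, the most of any member. Over all transcripts, the 5′UTR took 6.042 to 8.563%. Within the members, the 5′UTR share in untreated cultures was 86.0% for Cdc20 (37 of 43 footprints, 95% exact binomial interval 72.1 to 94.7%), 39.0% for Mcm4 (32.1 to 46.2%), 21.3% for the spindle assembly factor Tpx2 (17.2 to 25.9%) and 17.5% for Aurora kinase B, Aurkb (12 to 24.1%). Cdkn1a had 15.9% (13.6 to 18.3%) in untreated and 10.5% (8.16 to 13.1%) in KCl cultures. The share was higher with KCl for Tpx2, at 35.1% (27.6 to 43.2%), and for Ccna2, at 2.71% (1.56 to 4.36%) against 10.3% (5.46 to 17.4%). No 5′UTR footprint was seen for Aurka, Birc5, Cenpe, Mcm5, E2f1 or Plk1 in untreated cultures. For Cenpe, 0 of 445 footprints gave an upper bound of 0.826%. Intervals cover counting error only. In untreated RNAseq, Cdc20 had 9 reads on the 5′UTR and 0 on the CDS. Mcm4 had 10 on the 5′UTR, 3 on the CDS and 92 on the 3′UTR. The CDS of these 2 transcripts thus drew few reads in RNAseq too, so their 5′UTR shares do not show heavy use of the 5′UTR by ribosomes. The part of read placement in them was not tested. In RNAseq, the CDS share of the members' reads was 52.7 to 56.2% in untreated and 46.3 to 47.2% in KCl libraries, without overlap. Leaving out Cdkn1a, whose reads rose, it was 54.9 to 59.8% against 48.0 to 52.4%. Over all transcripts the CDS share was 41.02 to 42.61% in untreated and 39.35 to 40.56% in KCl libraries.

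The comparison of KCl with untreated cultures asked how depolarization changed transcript abundance, ribosome occupancy and TE. The members did not move as a block. Among the 8 members past the expression threshold, RNAseq levels of Kif23 and Cdkn1a rose and those of Mcm7 and Rb1 fell. In RF, Kif23 and Cdkn1a rose and Ccna2 and Rb1 fell. In TE, edgeR called 0 of 8, DESeq2 called 0 of 8, and 0 of 8 had an unadjusted p under 0.05. Of all 7262 transcripts past the threshold, 33.2% were called in RNAseq (17.5% higher and 15.7% lower), 41.0% in RF (21.2% and 19.8%) and 5.80% in TE (1.67% and 4.13%). The 4 calls in each of RNAseq and RF cannot be set apart from these shares, and Kif23 and Rrm2 entered the fit through 1 group only. In the wider fit, which also covered weakly expressed members, 3 of 31 rose and 1 fell in RNAseq (background 24.7%, with 13.3% higher and 11.4% lower). Of 30 members in RF, 5 rose and 2 fell (background 32.6%, with 17.2% higher and 15.4% lower), and of 30 in TE, 2 rose (background 2.97%, with 0.823% higher and 2.14% lower). Under scaling by library totals, the wider fit had 3 rises and 6 falls among the members in RNAseq, and 4 of each in RF. For TE it had 0 calls with DESeq2 or gene sums. The median log2 fold change of the members was -0.10 in RNAseq, 0.05 in RF and 0.10 in TE, beside -0.01, -0.01 and 0.01 over all transcripts. Scaling by library totals instead of TMM moved the median over all transcripts of the wider fit by -0.13 in RNAseq and -0.17 in RF (log2). It changed the share of higher among called transcripts at the threshold from 52.7% to 42.5% in RNAseq and from 51.7% to 38.2% in RF, and changes below are relative to the TMM scale. Values of Top2a, Ccna2, Mcm7, Rrm1, Cdkn1a and Rb1 are given from the fit at the expression threshold, and values of all other genes below, Kif23 included, from the wider fit. Adjusted p-values come from edgeR with Benjamini-Hochberg adjustment over all transcripts of the fit, and ± is the approximate SE of the log2 fold change.

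**Figure D2:**
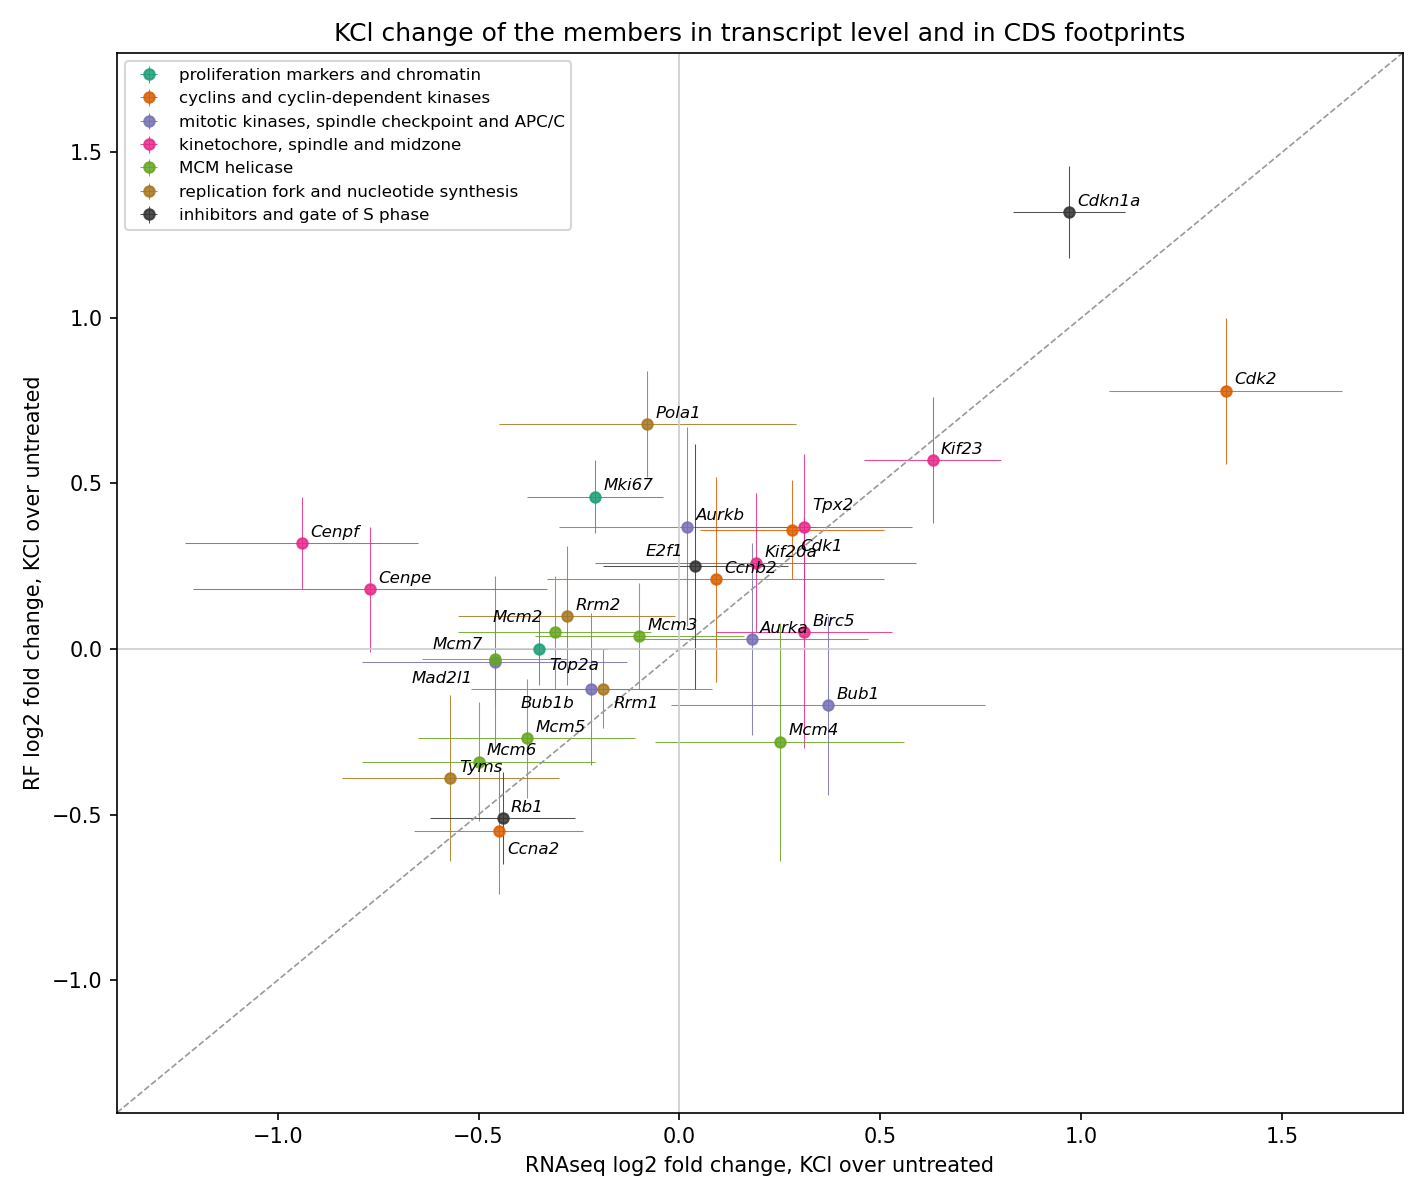
Log2 fold change (KCl over untreated) of the 30 members in RNAseq (horizontal axis) and in CDS footprints (vertical axis) from the wider fit, colored by role, with bars of 1 approximate SE. Cdkn1a, Cdk2 and Kif23 lie at the upper right, Ccna2, Rb1, Tyms and Mcm6 at the lower left, and Cenpf stands above the dashed line of equal change.

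Cdkn1a showed the clearest change. This inhibitor of cyclin-dependent kinases (ENSMUST00000023829, GRCm38 chromosome 17, 29093769 to 29100722, plus strand) read 137.7, 177.5 and 164.1 normalized CPM in untreated RNAseq libraries and 283.8 and 316.4 in KCl libraries. Its CDS footprints were 56.22, 46.19 and 73.69 in untreated and 126 and 137.5 in KCl libraries. Both KCl cultures lay above all untreated cultures in both assays. The rise was 1.88-fold in RNAseq (log2 0.91 ± 0.13, adjusted p = 6.15e-07) and 2.38-fold in RF (log2 1.25 ± 0.15, adjusted p = 1.79e-07), while TE differed by 0.30 ± 0.20 on the log2 scale (adjusted p = 0.447).

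Rb1, the pocket protein that restrains E2F (ENSMUST00000022701, chromosome 14, 73195502 to 73325822, minus strand), moved the other way. RNAseq levels were 83.52, 64.93 and 60.03 normalized CPM in untreated and 51.49 and 46.57 in KCl libraries, and RF levels were 82.37, 100.9 and 98.01 against 65.77 and 59.46. The groups did not overlap in either assay. Footprints fell to 0.668-fold (log2 fold change -0.58 ± 0.14, adjusted p = 0.00163) and RNA to 0.705-fold (log2 fold change -0.50 ± 0.18, adjusted p = 0.0241). The RNAseq call was lost with CDS reads alone (log2 fold change -0.16, adjusted p = 0.667), in the wider fit (adjusted p = 0.0587), and without untreated culture 1, KCl culture 4 or KCl culture 5 (adjusted p = 0.112, 0.0532 and 0.165). The RF call was lost without KCl culture 5 (adjusted p = 0.0746). E2f1 read 21.79, 25.79 and 35.12 in untreated and 28.92 and 25.28 in KCl RNAseq libraries, overlapping groups with a log2 fold change of 0.04 ± 0.23 (adjusted p = 0.929).

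Among the cyclins and their kinases, Cdk2 rose and Ccna2 lost footprints. Cdk2, the partner of cyclins E and A (ENSMUST00000026416, chromosome 10, 128697944 to 128705030, minus strand), had 10.89, 8.495 and 7.024 normalized CPM in untreated and 19.39 and 23.86 in KCl RNAseq libraries. Its footprints were 15.44, 13.65 and 18.42 against 23.79 and 25.54, so KCl cultures lay above untreated ones in both assays. RNA rose 2.56-fold (log2 1.36 ± 0.29, adjusted p = 0.000132) and footprints 1.71-fold (log2 0.78 ± 0.22, adjusted p = 0.00555). The RNA values rest on 22 to 84 reads per library, and 71 untreated reads lay on the 3′UTR and 14 on the CDS. With CDS reads alone the log2 fold change was 1.56 (adjusted p = 0.0826). The RF call was lost without KCl culture 5 (adjusted p = 0.141) and with DESeq2 (adjusted p = 0.0556).

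Ccna2, the cyclin of S phase and early mitosis (ENSMUST00000029270, chromosome 3, 36564865 to 36572150, minus strand), had footprints of 34, 42.85 and 39.79 normalized CPM in untreated and 27.99 and 23.35 in KCl cultures, without overlap. They fell to 0.652-fold (log2 fold change -0.62 ± 0.19, adjusted p = 0.00955), but without KCl culture 5 the adjusted p was 0.238. In RNAseq 1 untreated culture (31.55) lay below a KCl culture (32.1), and the log2 fold change was -0.51 ± 0.21 (adjusted p = 0.0546). Cdk1 and Ccnb2, which act together at mitotic entry, passed in neither assay. Cdk1 footprints were 54.46, 50.63 and 69.27 against 76.27 and 63.11, with a log2 fold change of 0.36 ± 0.15 (adjusted p = 0.058).

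Among the proliferation markers, footprints of Mki67 rose and no RNA change passed the test. Mki67, which coats mitotic chromosomes and marks cycling cells (ENSMUST00000033310, chromosome 7, 135689784 to 135716361, minus strand), had 79.59, 73.42 and 63.54 normalized CPM in untreated and 58.8 and 60.21 in KCl RNAseq libraries (log2 fold change -0.21 ± 0.17, adjusted p = 0.385). Its footprints were 135.5, 184.1 and 157 in untreated and 204.3 and 212 in KCl cultures, a rise of 1.38-fold (log2 0.46 ± 0.11, adjusted p = 0.00107). The KCl cultures were thus below the untreated ones in RNAseq and above them in RF. TE was 1.695, 2.493 and 2.359 in untreated and 3.353 and 3.365 in KCl cultures, 1.60-fold higher in the fit (log2 0.68 ± 0.21, adjusted p = 0.0425). Over its alternatives the adjusted p of this TE difference ran from 0.0127 to 0.485, and 8 of 12 alternatives lost the call. One of them was the fit with no replicate block for culture (adjusted p = 0.0532). Top2a footprints overlapped between groups (173.3, 204 and 198.2 against 187.5 and 177.3), and its RNA read 79.89, 62.2 and 78.54 against 54.67 and 55.66 (log2 fold change -0.41 ± 0.17, adjusted p = 0.0551).

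Kinetochore and spindle genes differed from each other. Cenpf, a large kinetochore protein (ENSMUST00000171929, chromosome 1, 189640606 to 189688086, minus strand), had RNAseq levels of 27.24, 16.38 and 18.2 normalized CPM in untreated and 11.44 and 9.088 in KCl cultures, a fall to 0.52-fold (log2 fold change -0.94 ± 0.29, adjusted p = 0.0106). Footprints were higher in both KCl cultures than in any untreated one, at 55.27, 74.76 and 63.37 against 75.57 and 78.07, and did not pass (log2 fold change 0.32 ± 0.14, adjusted p = 0.0807). TE of Cenpf was 2.37, 5.32 and 3.9 in untreated and 7.474 and 9.629 in KCl cultures. It rose 2.42-fold (log2 1.28 ± 0.31, adjusted p = 0.0033). The TE call was lost without untreated culture 1 (adjusted p = 0.0818), without KCl culture 5 (adjusted p = 0.357), with DESeq2 (adjusted p = 0.0728) and with gene sums (adjusted p = 0.0507), and the RNAseq call without the same cultures (adjusted p = 0.0745 and 0.154). The RNA counts were 90, 54, 57, 36 and 32 reads.

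Kif23, which bundles midzone microtubules (ENSMUST00000034815, chromosome 9, 61917280 to 61946774, minus strand), had RNAseq levels of 54.47, 62.2 and 58.43 normalized CPM in untreated and 102 and 71 in KCl cultures, 1.54-fold higher (log2 0.63 ± 0.17, adjusted p = 0.00296). With CDS reads alone, 89 in the untreated cultures, the log2 fold change was -0.07 (adjusted p = 0.938). Without KCl culture 4 the adjusted p was 0.324 and the log2 fold change 0.35. Its footprints were 20.86, 29.2 and 30.21 against 32.89 and 39.4 (log2 fold change 0.57 ± 0.19, adjusted p = 0.0174). The RF call was lost without untreated culture 1 (adjusted p = 0.151), without KCl culture 5 (adjusted p = 0.371), with DESeq2 (0.125), with library totals (0.0994) and with gene sums (0.0626). The other members of this group, Cenpe, Kif20a, Tpx2 and Birc5, passed in neither assay. In the wider fit all 6 tested genes of the group had positive RF log2 fold changes, from 0.05 to 0.57, and 1 was called. Over all transcripts 49.2% were positive and 32.6% were called in RF.

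No mitotic kinase or checkpoint gene passed the test. Aurka, Aurkb, Plk1, Bub1, Bub1b and Mad2l1 were tested in RNAseq and all but Plk1 in RF, with 0 calls by edgeR in RNAseq, RF and TE, 0 by DESeq2 and 0 at an unadjusted p under 0.05. Their RNAseq log2 fold changes ran from -0.46 to 0.50 and their RF log2 fold changes from -0.17 to 0.37. Over all transcripts of the wider fit edgeR called 24.7% in RNAseq, 32.6% in RF and 2.97% in TE. Counts of 0 among 6 genes in RNAseq and 5 in RF and TE cannot be set apart from these shares. Aurka, which builds spindle poles, read 12.71, 13.96 and 13.09 normalized CPM against 12.4 and 16.19. Bub1b, the BubR1 checkpoint kinase, had footprints of 18.83, 26.19 and 25.79 against 20.99 and 19.7. The SE of their RNAseq log2 fold changes was 0.29 to 0.54, so small changes were not detectable at this depth. For Plk1, the polo kinase, only 8 to 13 RNAseq reads per library were counted.

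Of the MCM helicase, Mcm7 was the only subunit in the fit at the expression threshold, and it was called there, lower in RNA. The RNAseq log2 fold changes of Mcm2, Mcm3, Mcm5, Mcm6 and Mcm7 were negative (-0.31, -0.10, -0.38, -0.50 and -0.46 in the wider fit) and that of Mcm4 positive (0.25), beside 51.3% negative over all transcripts. In the wider fit 0 of 6 were called in RNAseq, RF or TE by edgeR or DESeq2. At an unadjusted p under 0.05 there was 1 in RNAseq, Mcm7, and 0 in RF and TE. Over all transcripts of that fit edgeR called 24.7% in RNAseq, 32.6% in RF and 2.97% in TE. The counts of 0 of 6 cannot be set apart from these shares. Summed over the 6 subunits, RNAseq read 140.1, 160.5 and 163.5 normalized CPM in untreated and 112.8 and 124.4 in KCl cultures, and RF 239, 235.1 and 257.9 against 219.7 and 213. Both sums lay lower in KCl cultures without overlap. So did the RNAseq sums of astrocyte, microglia and oligodendrocyte lineage markers. In RF, however, the astrocyte and microglia sums lay higher with KCl without overlap, and the oligodendrocyte lineage sums overlapped. The part of these cell types in the MCM sums was not tested. Mcm7 (ENSMUST00000000505, chromosome 5, 138164583 to 138172422, minus strand) was called in the fit at the expression threshold, with 52.05, 64.63 and 66.73 normalized CPM against 39.41 and 45.44 (log2 fold change -0.52 ± 0.18, adjusted p = 0.0227). In the wider fit its adjusted p was 0.0549, and leaving out untreated culture 2 or 3 or KCl culture 4 gave 0.069, 0.0986 and 0.193. Mcm7 footprints overlapped (66.79, 63.8 and 72.21 against 66.47 and 59.83). Mcm5 and Mcm6 were lower in both KCl cultures than in all untreated ones in both assays, with RF log2 fold changes of -0.27 ± 0.18 and -0.34 ± 0.18 that did not pass (adjusted p = 0.268 and 0.142).

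Genes of the fork and of nucleotide synthesis had no RNA change that passed among 4 tested, and footprints of 1 rose. Over all transcripts of the wider fit 24.7% were called in RNAseq and 17.2% were called higher in RF. Pola1 (ENSMUST00000006856, chromosome X, 93304767 to 93632155, minus strand) had RNAseq levels of 8.171, 7.585 and 7.663 normalized CPM in untreated and 6.675 and 7.384 in KCl cultures (log2 fold change -0.08 ± 0.37, adjusted p = 0.901). Its footprints were 36.17, 38.41 and 33.9 against 58.78 and 53.99, 1.60-fold higher (log2 0.68 ± 0.16, adjusted p = 0.000693), and this call held in all 10 alternatives, with adjusted p up to 0.024. TE of Pola1 was 5.08, 5.801 and 4.868 in untreated and 9.792 and 8.054 in KCl cultures without overlap, but on 21 to 27 RNAseq reads per library the interaction did not pass (log2 fold change 0.78 ± 0.38, adjusted p = 0.321). Rrm1 and Rrm2, the subunits of ribonucleotide reductase, passed in neither assay, with Rrm1 footprints of 143.6, 175.9 and 137.1 against 133.6 and 136.4. Tyms, thymidylate synthase, read 17.25, 20.33 and 21.71 against 12.71 and 12.78 in RNAseq and was lower in both assays without passing (adjusted p = 0.126 and 0.236).

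**Figure D3:**
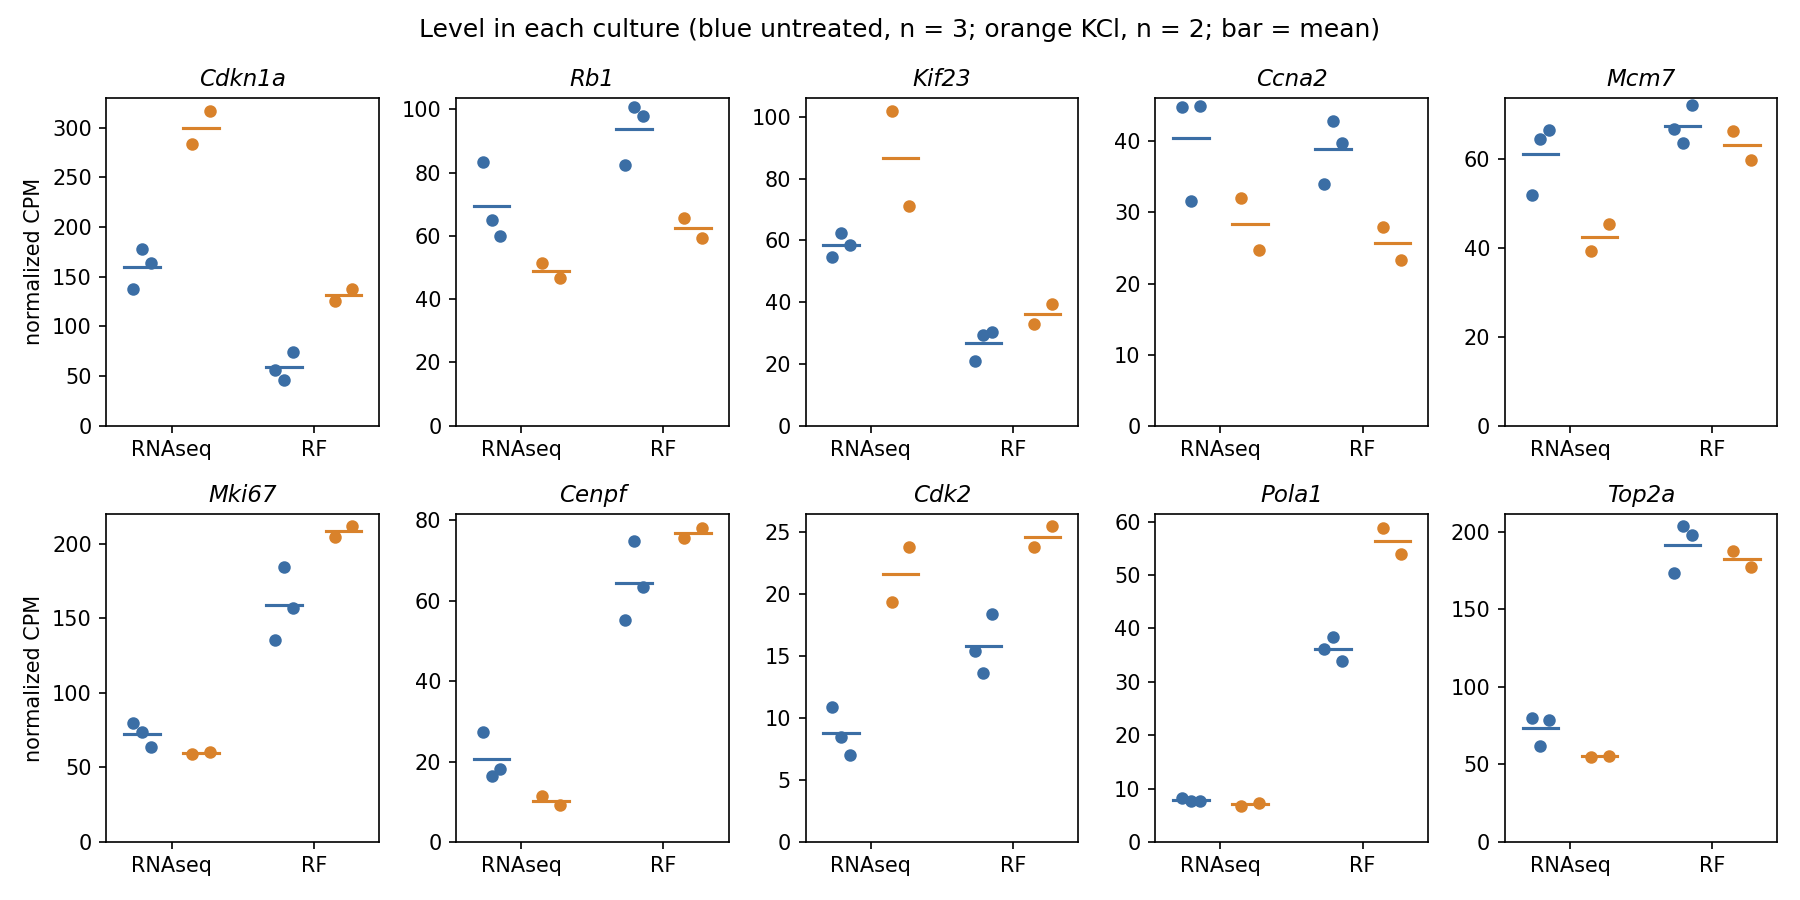
Normalized CPM of 10 members in each culture, RNAseq at the left and CDS footprints (RF) at the right of each panel, with blue for 3 untreated and orange for 2 KCl cultures and bars for means. Cdkn1a and Cdk2 lie higher with KCl in both assays and Rb1 lower, while Mki67, Cenpf and Pola1 are higher with KCl in RF but not in RNAseq.

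Across the 31 members tested in RNAseq, both KCl cultures lay above all untreated cultures in 5 and below them in 10, and the groups overlapped in 16. Of all transcripts, 49.5% had groups without overlap (20.7% above and 28.8% below). In RF the KCl cultures lay above in 7 and below in 7 of 30, against 55.1% without overlap over all transcripts (23.2% above and 31.9% below), and in TE above in 4 and below in 2 of 30, against 30.6% (12.8% and 17.8%).

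The other genes of the cell cycle showed calls in both directions. Of 119 further genes, 93 had counts, and the wider fit called 10 of 86 higher and 11 lower in RNAseq and 12 of 80 higher and 11 lower in RF, with 0 of 80 in TE by edgeR or DESeq2 and 9 of 80 at an unadjusted p under 0.05. The shares called, 24.4% and 28.7%, stood beside backgrounds of 24.7% and 32.6%. Among cyclin-dependent kinase inhibitors and p53-related genes, 3 of 8 rose and 0 fell in RNAseq, and 3 rose and 1 fell in RF. E2F, pocket protein and DREAM genes had a like count in RNAseq, with 3 of 9 higher and 0 lower. Of all transcripts, 13.3% were called higher and 11.4% lower in RNAseq, and 17.2% and 15.4% in RF. Gadd45a, a p53 target induced by stress, rose from 9.381, 9.102 and 8.621 to 26.06 and 24.99 normalized CPM, 2.94-fold (log2 1.56 ± 0.27, adjusted p = 4.78e-06), and its RF log2 fold change was 1.15 ± 0.23 (adjusted p = 9.51e-05). Mdm2, the ubiquitin ligase of p53, read 130.7, 120.8 and 135.4 against 226.9 and 220.4 in RNAseq (log2 fold change 0.86 ± 0.14, adjusted p = 7.38e-07). The groups did not overlap in either gene. The Gadd45a RNAseq call was lost with CDS reads alone (adjusted p = 0.167).

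Of the G1 cyclins and kinases, 0 of 6 were higher and 2 of 6 lower in RNAseq, beside 13.3% and 11.4% over all transcripts. The 2 were Ccnd1, cyclin D1, and Cdk4, its kinase, both named after their values were seen. Cdk4 read 97.4, 98 and 96.1 normalized CPM in untreated and 71.2 and 66.2 in KCl RNAseq libraries, and 41.6, 40.8 and 36.8 against 23.8 and 24.8 in RF, lower with KCl in every library. Of the genes for origin licensing, Orc5, a subunit of the origin recognition complex, fell in both assays, from 27.64, 34.92 and 30.21 to 16.09 and 11.31 in RF (log2 fold change -1.17 ± 0.23, adjusted p = 7e-05). Its RNAseq call (log2 fold change -0.94 ± 0.28, adjusted p = 0.0088) was lost without untreated culture 3 (adjusted p = 0.0648), without KCl culture 5 (0.135) and with CDS reads (0.073), and its RF call without KCl culture 5 (0.0635).

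Other fork proteins had 5 falls and 1 rise among 16 genes in RNAseq, beside 11.4% lower and 13.3% higher over all transcripts. Fen1, the flap endonuclease of lagging strand synthesis, was the rise, at 15.58, 14.44 and 19.16 against 38.49 and 33.2 normalized CPM in RF (log2 fold change 1.24 ± 0.21, adjusted p = 3.2e-06). In RNAseq Fen1 had a log2 fold change of 1.08 ± 0.26 (adjusted p = 0.000884), a call that was lost with CDS reads alone (adjusted p = 0.546). Pold2, a subunit of polymerase delta, had footprints of 28.59, 31.11 and 30.21 against 15.39 and 13.86 (log2 fold change -0.98 ± 0.22, adjusted p = 0.000465), a call that was lost without KCl culture 5 (adjusted p = 0.0617). The primase subunit Prim1, named after its values were seen, had the lowest RNAseq log2 fold change of the 86 genes, -2.04 ± 0.46 (adjusted p = 0.000419). Anapc4, a scaffold subunit of the APC/C, read 51.45, 47.63 and 55.87 against 21.93 and 16.76 in RNAseq (log2 fold change -1.36 ± 0.21, adjusted p = 3.83e-07), and its RF log2 fold change was -0.95 ± 0.14 (adjusted p = 2.33e-07). Gadd45a and Fen1 had reached the expression threshold in KCl cultures only, and Orc5, Pold2 and Anapc4 in untreated cultures only, and these genes were chosen for their change, so their values are a description. Of the other mitotic genes, 6 of 27 rose and 2 fell in RF, and 2 of 28 rose and 1 fell in RNAseq. The shares over all transcripts were 17.2% higher and 15.4% lower in RF, and 13.3% and 11.4% in RNAseq.

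**Figure D4:**
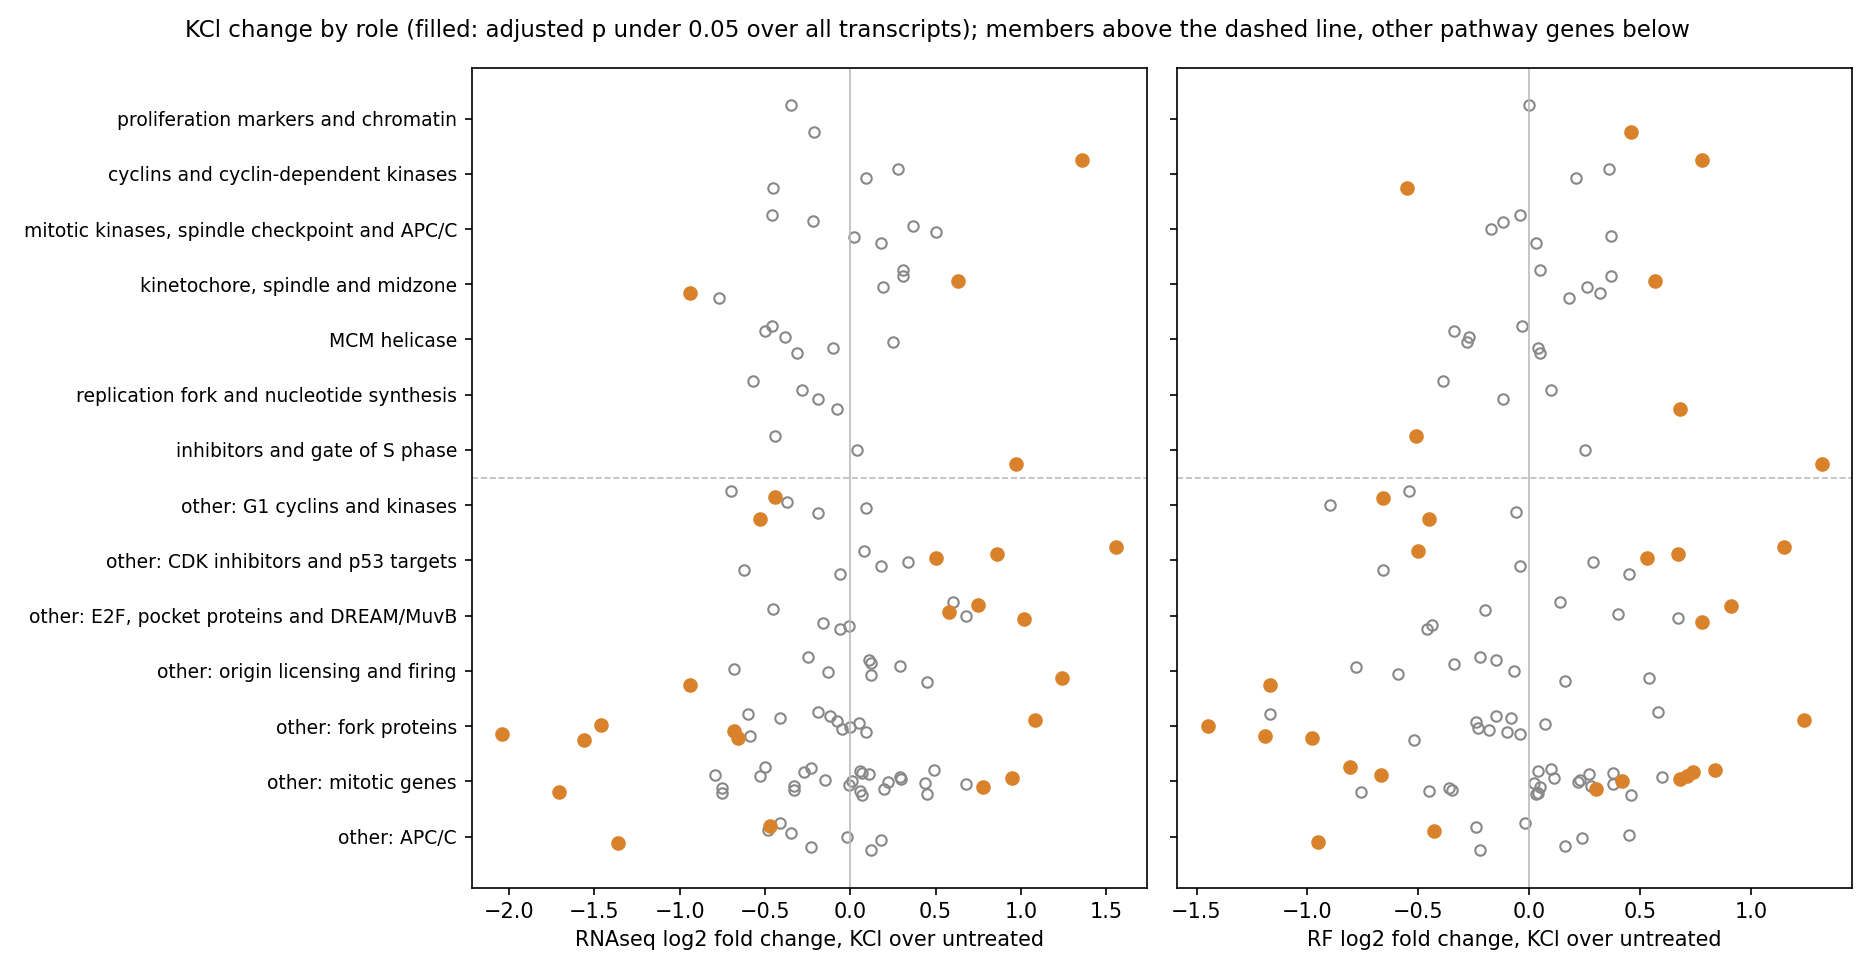
Log2 fold change (KCl over untreated) by role in RNAseq (left) and RF (right) from the wider fit, 1 circle per gene, filled where the adjusted p over all transcripts was under 0.05. Members lie above the dashed line and the 93 other cell cycle genes with counts, as far as tested, below it, with calls on both sides of 0 among the other fork proteins and the other mitotic genes in both assays.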

How the data were processed

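Per the study's methods and the labels, the authors used Trimmomatic 0.32 for trimming and STAR 2.3.1z8 to discard rRNA. Bowtie2 2.2.2 then placed reads, unique and multi-mapped, on an mm10 transcriptome from which degenerate sequence had been taken out. The authors deposited counts of reads per transcript region from bedtools 2.20.1, not normalized. Isoforms therefore share reads. The files list regions by letter. Letters were assigned to 5′UTR, CDS and 3′UTR from read shares against annotated lengths, and 1 region stayed unnamed. A KCl replicate that the study removed for low size is not analysed here.

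RNAseq values were reads on all regions, RF values CDS reads. The test was edgeR 4.0.16 (R 4.3.3) with quasi-likelihood F-tests, robust dispersions and TMM within each assay, fitted on all transcripts at the threshold (7262) or after filterByExpr (16965 in RNAseq, 16149 in RF, 15437 in TE), with Benjamini-Hochberg adjustment. TE was the assay by treatment interaction, blocked by culture, since both libraries of a culture came from 1 lysate. Deviations from group means correlated between the assays of a culture by -0.076 to 0.067. SE is the absolute log2 fold change over the square root of F. Every member is named, and of the other cell cycle genes the 5 with the largest absolute change per assay among those called in the fit at the threshold with KCl cultures beyond all untreated ones, with values from the wider fit. The members and gene lists were chosen with earlier results of these data known. The fits were tested on simulated data, but only for transcripts at the threshold and with larger changes than most reported here. That test does not cover the wider fit, weakly expressed members or small changes. DESeq2 1.42.0, other scalings, filters, gene sums, CDS reads and leaving out each culture were the alternatives. Python 3.11.15, numpy 2.4.6, pandas 2.3.3 and scipy 1.17.1 were used.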

Additional observations from a re-analysis of the deposited data

How the results depend on the processing

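In RNAseq, 2412 transcripts were called as reported, 1531 with CDS reads, 1579 with at least 100 reads in every library, 4182 after filterByExpr, 4143 with no filter beyond 1 read and 1433 after reads were summed per gene. In RF the count was 2974, and 1058, 5259, 5351 and 1678 under the same filters and gene sums. In TE it was 421, and 260 with CDS reads, 174 with DESeq2, 92 with at least 100 reads and 247 with gene sums. Leaving out 1 culture gave 1638 to 2613 calls in RNAseq, 1696 to 3234 in RF and 66 to 516 in TE, with both lower ends of RF and TE without KCl culture 5. The cause was not tested, and filters and gene sums also change how many features are tested.

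Calls among the members were counted over those that passed each filter. In RNAseq, 2 were higher at the threshold and 1 with CDS reads. The count lower in RNAseq was 2 at the threshold, 1 with CDS reads, with DESeq2, after filterByExpr and with no filter, and 4 with all 10 libraries in 1 fit and with library totals. The 1 after filterByExpr was Cenpf, which is not among the 8 members at the threshold, while Mcm7 and Rb1 were lost. In RF, 2 were higher at the threshold, 1 with DESeq2, with at least 100 reads, with library totals and with gene sums, and 5 after filterByExpr and with no filter, where Cdk2, Mki67 and Pola1 were also tested. The 2 lower in RF became 1 with DESeq2 and with at least 100 reads. In TE there were 0 at the threshold, 2 after filterByExpr (Cenpf and Mki67) and 1 with no filter. Leaving out 1 culture gave 1 to 2 higher and 1 to 3 lower in RNAseq, 1 to 2 higher and 0 to 2 lower in RF, and 0 in TE. Kif23 in RNAseq turned to -0.12 with CDS reads. The members' median baseline TE of 2.43 was 2.6 in untreated culture 2 alone and 3 with CDS reads.

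Without the replicate block for culture, 413 transcripts were called in TE, and the Mki67 call was lost (adjusted p = 0.0532). The Cenpf call was not lost there (adjusted p = 0.0107), but was in 4 other alternatives. The low RF depth of untreated culture 3 and KCl culture 4 limits TE of some weakly expressed members, and few RNAseq reads limit TE of others. In untreated culture 3, E2f1 had 4 CDS footprints and 110 RNAseq reads, whereas Pola1 had 46 CDS footprints and 24 RNAseq reads.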
